A study of Mus musculus with 4 samples.

Results

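The erythroid effector genes, 10 genes that act in developing red cells, were followed across 4 single-cell RNA-seq libraries of mouse bone marrow. They were taken by symbol, and all 10 were found among the 55357 genes of the files: Car1 and Car2, Aqp1, Ermap, Tspo2, Mfsd2b, and the haemoglobin genes Hbb-bt, Hbb-bs, Hba-a1 and Hba-a2. The rule that names them uses no measured value, but the genes were chosen with earlier results of these data known. The cells were LSK cells, a sorted fraction defined by lack of lineage antigens and by surface Sca-1 and Kit, in which the haematopoietic stem cells (HSC) of the marrow are found beside multipotent progenitors. The mice were wild type. A pair of libraries came from animals given vehicle (control 1 and control 2) and a pair from animals given Yoda1 by the intraperitoneal route for 2 weeks (Yoda1 1 and Yoda1 2). Yoda1 is a synthetic agonist of Piezo1, an ion channel that opens when the membrane is stretched. Strain, age, sex, dose and the number of animals behind each library are not given in the labels, so p-values reflect only how far these libraries differ, and that spread may be technical.

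As progenitors commit to the red cell lineage, the factors Gata1 and Klf1 switch on a programme that ends in cells filled with haemoglobin. Some of its genes come on early: Car1 and Car2 encode cytosolic carbonic anhydrases, which interconvert carbon dioxide and bicarbonate, and Aqp1 encodes a water channel of the red cell membrane. Ermap encodes an erythroid membrane protein of the immunoglobulin superfamily, Tspo2 an erythroid member of the translocator protein family, and Mfsd2b the transporter by which red cells and platelets release sphingosine-1-phosphate. Haemoglobin follows later; Hbb-bt and Hbb-bs encode adult beta chains, Hba-a1 and Hba-a2 the alpha chains that pair with them.

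Positions are those of GENCODE M21 on GRCm38. All are protein-coding, and counts were per whole gene, so they do not separate exons, introns or UTRs. Car1 (chromosome 3, 14766216 to 14808368, minus strand) and Car2 (chromosome 3, 14886273 to 14900770, plus strand) lie near each other. Hbb-bt (chromosome 7, 103812524 to 103813996) and Hbb-bs (chromosome 7, 103826534 to 103828096) lie on the minus strand. Hba-a1 (chromosome 11, 32283511 to 32284465) and Hba-a2 (chromosome 11, 32296489 to 32297298) lie on the plus strand. Aqp1 is on chromosome 6, from 55336432 to 55348555, Ermap on chromosome 4, from 119175457 to 119190011, Tspo2 on chromosome 17, from 48447907 to 48451522, and Mfsd2b on chromosome 12, from 4862440 to 4874359. The annotated transcripts of Hba-a1 and Hba-a2 were alike enough (96.9% of the bases of the shorter one matched in a global alignment) that the split of reads between them is uncertain. For Hbb-bt and Hbb-bs the share was 92.4%, and their split, on which a result below turns, is uncertain to the extent that short reads cannot tell the copies apart.

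Since the proportion of Hbb-bt to Hbb-bs differed between gates (below), the 250 bases before the start site of each are shown, from RefSeq (GRCm38.p6, minus strand, 5′ to 3′). That of Hbb-bt is chr7:103813924-103814173 and that of Hbb-bs is chr7:103827929-103828178. Capitals mark matches, on either strand, to 3 of the 4 motifs searched: AGATAA (a motif of Gata1 and its relatives), CCACACCC (a motif of Klf1 and its relatives) and CCAAT.
Hbb-bt: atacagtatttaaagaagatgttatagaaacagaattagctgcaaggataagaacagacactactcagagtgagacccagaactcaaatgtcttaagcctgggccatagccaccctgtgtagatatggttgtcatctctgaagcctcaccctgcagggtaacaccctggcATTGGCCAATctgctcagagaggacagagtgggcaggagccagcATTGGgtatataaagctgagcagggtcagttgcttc
Hbb-bs: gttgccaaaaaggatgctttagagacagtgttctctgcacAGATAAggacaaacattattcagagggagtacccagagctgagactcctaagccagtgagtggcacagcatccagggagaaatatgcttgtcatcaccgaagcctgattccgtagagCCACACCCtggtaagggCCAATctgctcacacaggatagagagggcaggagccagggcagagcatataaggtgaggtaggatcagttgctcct

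The 2 windows were identical at 69.3% of aligned positions. That of Hbb-bs held AGATAA from position -210 and CCACACCC from position -93, counted from the start site, and that of Hbb-bt held neither string. Both held CCAAT, from position -76 in Hbb-bs and from position -75 in Hbb-bt; in Hbb-bt its reverse complement ATTGG stood at -80, beside it, and at -36. Windows were found for 8 of the 10 genes, without Car1 and Car2. CCAAT was in 6 of the 8 windows against 33.8% of 32851 RefSeq windows of the same length. AGATAA, in 9.99% of all windows, and CCACACCC, in 3.20%, were each in 1 of the 8, and ATAAAA, in 17% of all, was in none. The windows of Hba-a1 and Hba-a2 were identical at 97.6% of positions. These are matches of letters only.

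After filtering, 7620, 7822, 9122 and 9756 cells (control 1, control 2, Yoda1 1, Yoda1 2) held 89058521 to 110493533 UMIs per library, with medians of 11220.0, 9410.5, 10183.5 and 7311 UMIs per cell. UMIs are counted molecules, and levels are given as CPM, the UMIs of a gene scaled by the total of the cells summed, which are not corrected for gene length and are compared between cells or libraries, not between genes. Kit had a UMI in 63.3% to 66.6% of cells and Ly6a, which encodes Sca-1, in 44.2% to 73.0%. Among the 34320 kept cells, 119 barcodes (0.348% of the distinct barcodes) stood in more than 1 library. Cells were placed in marker gates: after thinning to 4000 UMIs a cell took the lineage with most detected markers of 10, at least 2, and none of the 10 genes served as a marker. The library Yoda1 2 stood apart: 30.5% of its cells fell in the HSC gate against 1.78%, 4.96% and 4.40% in the other libraries (control 1, control 2, Yoda1 1), and 28.9% in the myeloid gate against 70.6%, 60.5% and 66.5%. Many results of the 10 genes that rest on it are given with and without it. The lists of other erythroid genes are given only with it.

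The erythroid gate held 734, 505, 640 and 152 cells in control 1, control 2, Yoda1 1 and Yoda1 2. All 10 of its markers were detected there. Of the 10 genes highest by fold in the gate against the other cells, 6 were effector genes (Hbb-bs, Hba-a1, Car1, Ermap, Hbb-bt and Tspo2), 3 were markers that formed the gate (Rhd, Klf1 and Blvrb), the last was Mt2, and none was a marker of another gate. Kit had a UMI in 71.7% to 84.0% of these cells, but Ly6a in 18.3%, 8.71%, 33.4% and 27.6%, at 18.5, 8.88, 36.6 and 28.2 CPM against 113, 97.9, 262 and 114 CPM over all cells. The gate was thus poor in the transcript of one defining antigen of the sort. Slc4a1, the band 3 anion exchanger of late erythroblasts, had a UMI in 0.681%, 0.594%, 0.625% and 5.26% of erythroid-gated cells.

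Over all kept cells, the 6 genes outside haemoglobin had lower mean levels in the Yoda1 libraries, by little for Car2, and for the other 5 the difference was carried mainly by Yoda1 2. Car1 stood at 867 and 508 CPM in the controls and at 486 and 101 CPM in the Yoda1 libraries. Yoda1 1 was close to control 2, and Yoda1 2 was far below every other library. The log2 fold change, Yoda1 over control, was -1.21 ± 0.72 (SE; 2 libraries per group; edgeR quasi-likelihood test with Benjamini-Hochberg adjustment, adjusted p = 1.0).

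Aqp1 followed the same order, with 84.5 and 45.5 CPM in the controls and 44.8 and 13.5 CPM in the Yoda1 libraries (log2 fold change -1.16 ± 0.60). Tspo2 stood at 47.5 and 31.7 CPM against 26.3 and 6.44 CPM (-1.26 ± 0.64), and Mfsd2b at 38.0 and 32.6 CPM against 24.5 and 8.72 CPM (-1.08 ± 0.49). In these genes both Yoda1 libraries lay below both controls. Ermap did not separate the groups: Yoda1 1, at 30.6 CPM, lay between control 2 at 29.6 and control 1 at 52.3 CPM, and Yoda1 2 was at 7.40 CPM (-1.10 ± 0.66). Car2 showed no such drop, with 531 and 461 CPM in the controls and 437 and 535 CPM in the Yoda1 libraries (log2 fold change -0.09 ± 0.21).

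**Figure D1:**
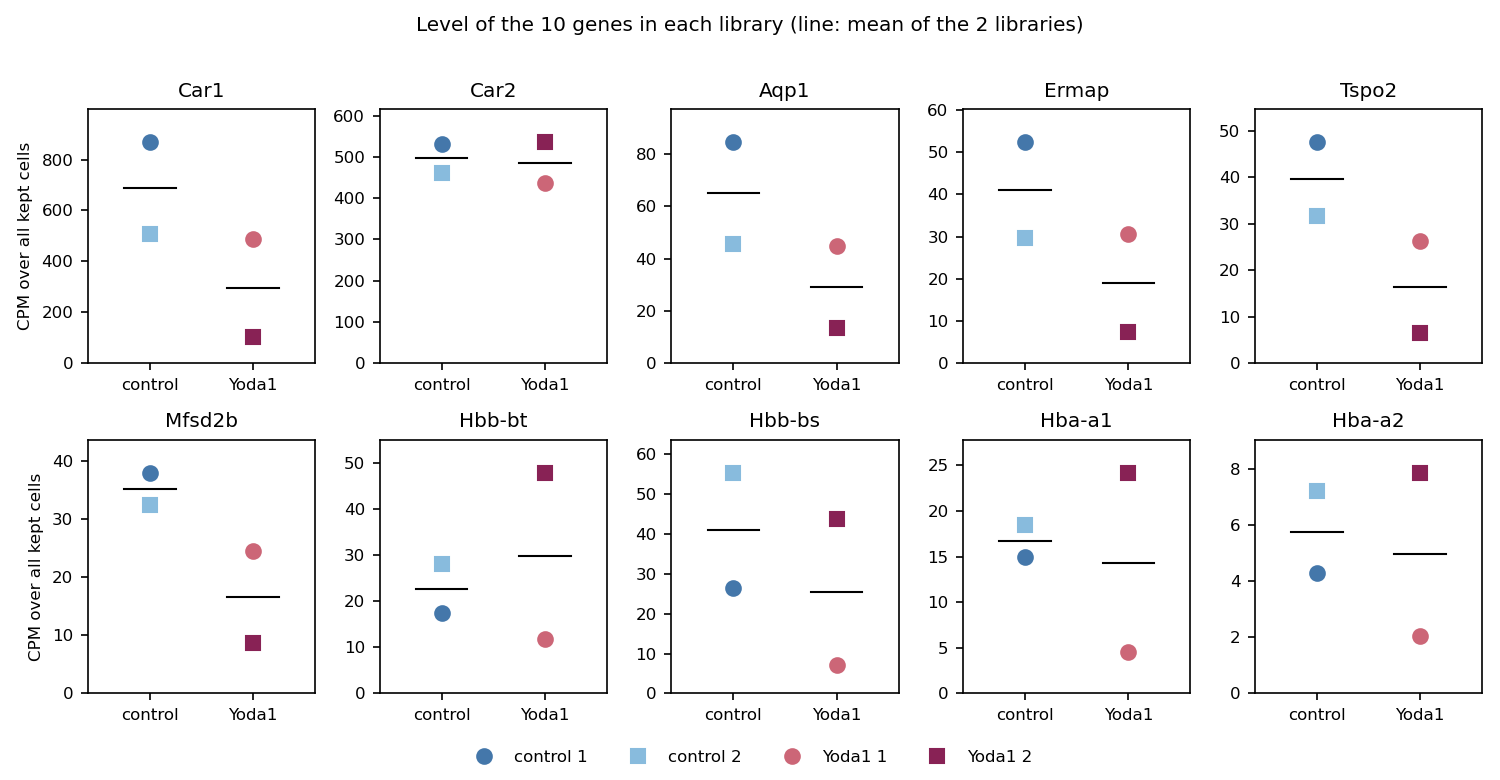
Level of each of the 10 genes over all kept cells, in CPM on linear axes that start at 0; each point is 1 library and each line the mean of the 2 libraries of a group. Yoda1 2 is lowest for Car1, Aqp1, Ermap, Tspo2 and Mfsd2b but highest for Hbb-bt, Hba-a1 and Hba-a2.

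The haemoglobin genes were spread without order between the groups. Hbb-bt stood at 17.3 and 27.9 CPM in the controls and at 11.7 and 47.8 CPM in Yoda1 1 and Yoda1 2. For Hbb-bs the values were 26.5 and 55.4 CPM against 7.21 and 43.7 CPM. Hba-a1 was at 15 and 18.5 CPM against 4.49 and 24.2 CPM, and Hba-a2 at 4.28 and 7.19 CPM against 2.04 and 7.85 CPM. In each of these genes Yoda1 1 was the lowest library, and in all but Hbb-bs Yoda1 2 was the highest. The log2 fold changes were 0.30 ± 0.53 for Hbb-bt, -0.79 ± 0.68 for Hbb-bs, -0.34 ± 0.60 for Hba-a1 and -0.31 ± 0.54 for Hba-a2.

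No effector gene passed the test. Among 18182 genes tested over all cells, edgeR called 0 (0% of those tested; 309, or 1.70%, had an unadjusted p under 0.05), limma-voom called 0 and DESeq2 called 5, none of them among the 10. In 4 of the 10 genes both Yoda1 libraries lay below both controls, against 9.95% of all genes tested, and in 0 both lay above, against 9.40%. The median log2 fold change was -0.94 over the 10 genes, -1.13 over the 6 outside haemoglobin and -0.32 over haemoglobin, with 0.01 over all genes. Without Yoda1 1 the log2 fold changes were -2.95 for Car1, -2.46 for Aqp1, -2.65 for Ermap, -2.80 for Tspo2, -2.19 for Mfsd2b and 0.93 for Hbb-bt. Without Yoda1 2 those of Car1, Aqp1, Ermap, Tspo2 and Mfsd2b were -0.45, -0.49, -0.36, -0.53 and -0.46. Those of Hbb-bs, Hba-a1 and Hba-a2 were then -2.42, -1.82 and -1.41. In sums over all cells, fewer cells of a type and less RNA per cell cannot be told apart.

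The share of cells in the erythroid gate was therefore measured. It was 10.3% and 6.87% in the controls and 7.43% and 1.73% in the Yoda1 libraries (exact binomial 95% intervals 9.60% to 11.0%, 6.30% to 7.47%, 6.88% to 8.0% and 1.47% to 2.03%, which cover counting error only). Yoda1 2 was the lowest and Yoda1 1 lay between the controls. The difference of -4.00 percentage points did not exceed the spread between libraries (exact permutation test, two-sided, p = 0.667; with 2 libraries against 2 the smallest p is 0.333). Without Yoda1 2 it was -1.15 points.

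The shares of cells with a UMI gave a similar order of libraries. Thinned to 4000 UMIs, 32.8% and 19.0% of control cells and 21.9% and 3.27% of Yoda1 cells had a Car1 UMI; unthinned the shares were 49.3%, 29.1%, 36.9% and 4.98%. Thinned Mfsd2b was found in 12.8% and 10.5% of control cells against 8.58% and 2.20% of Yoda1 cells, and Tspo2 in 10.8% and 6.60% against 6.06% and 0.798%; these groups did not overlap, and the exact permutation p was 0.333, the smallest the design allows. Car2 was found in 56.2% and 58.3% of control cells and in 56.7% and 76.3% of Yoda1 cells, so that Yoda1 2, lowest for Car1, was highest for Car2. Across Car1, Aqp1, Ermap, Tspo2 and Mfsd2b together, 5.47%, 2.92%, 2.66% and 0.331% of cells held a UMI of at least 4 of the 5 genes. A UMI of any of the 10 genes was in 68.1%, 66.8%, 65.3% and 78.8% of cells (difference 4.58 points, exact permutation p = 1.0; -2.21 points without Yoda1 2).

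Inside the erythroid gate Car1, Aqp1, Ermap, Tspo2 and Mfsd2b differed far less between the libraries than over all cells. Ermap was at 236 and 235 CPM in the controls and at 233 and 214 CPM in the Yoda1 libraries, where over all cells it had spanned a far wider range. Tspo2 stood at 182 and 216 CPM against 177 and 175 CPM, and Aqp1 at 309 and 284 CPM against 267 and 239 CPM. Car1 was at 3532 and 3989 CPM against 3436 and 2713 CPM, and Mfsd2b at 78.9 and 92.8 CPM against 75.2 and 64.7 CPM. All of these lay lower in both Yoda1 libraries than in both controls, by small amounts. The gate did not hold like cells in each library. Exactly 2 markers were found in 66 of 734, 101 of 505, 119 of 640 and 46 of 152 of its cells (control 1, control 2, Yoda1 1, Yoda1 2). The part of this in the differences was not tested. Car2 lay at 1736 and 2005 CPM against 1897 and 2040.2 CPM, with the groups overlapping.

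The log2 fold changes inside the gate were -0.28 ± 0.15 for Car1, 0.08 ± 0.12 for Car2, -0.22 ± 0.13 for Aqp1, -0.06 ± 0.12 for Ermap, -0.16 ± 0.13 for Tspo2 and -0.27 ± 0.14 for Mfsd2b (edgeR, adjusted p = 1.0 for each). Of 12159 genes tested there, edgeR called 0 (0%; 203, or 1.67%, had an unadjusted p under 0.05), limma-voom 0 and DESeq2 1. In 5 of the 10 effector genes both Yoda1 libraries lay below both controls, where 15.4% of all genes tested did. Without Yoda1 2 the difference of Ermap was 0.04, that of Car1 -0.08 and that of Mfsd2b -0.14.

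Haemoglobin behaved otherwise inside the gate: its levels differed widely between libraries of the same group. Hbb-bs was at 165 and 417 CPM in the controls and at 28.8 and 1279 CPM in Yoda1 1 and Yoda1 2. Hba-a1 was at 95.3 and 155 CPM against 27.0 and 733 CPM, Hba-a2 at 25.8 and 48.5 CPM against 6.49 and 221 CPM, and Hbb-bt at 81.5 and 157 CPM against 32.6 and 576 CPM. Yoda1 1 was the lowest and Yoda1 2 the highest library for every haemoglobin gene, with the controls between them. The log2 fold changes, 1.33 ± 0.94 for Hbb-bt, 1.14 ± 1.16 for Hbb-bs, 1.58 ± 1.03 for Hba-a1 and 1.58 ± 1.13 for Hba-a2, did not pass (edgeR, adjusted p = 1.0). Without Yoda1 1 they were 2.24, 2.10, 2.52 and 2.55, and without Yoda1 2 they were -1.81, -3.28, -2.15 and -2.45. The direction was thus set by which Yoda1 library was kept. With no filter on low counts all 4 were called, at 1.28, 1.10, 1.53 and 1.54. They were among 53 higher and 19 lower genes called of 21560 tested. In limma-voom the signs turned (-0.03, -0.80, -0.15 and -0.75).

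**Figure D2:**
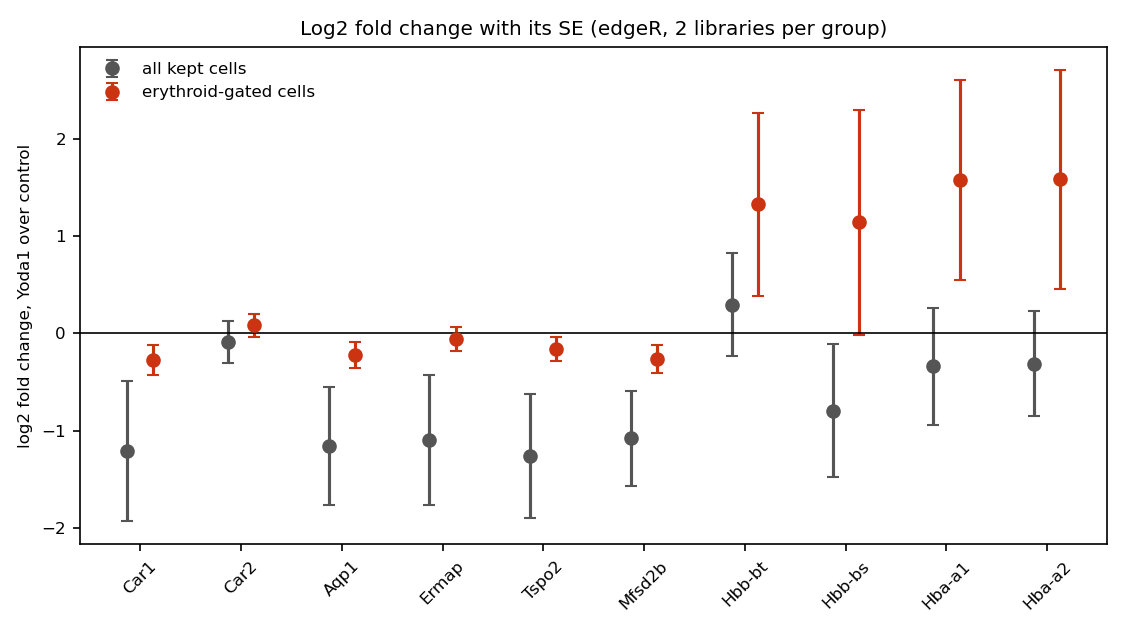
Log2 fold change, Yoda1 over control, of each gene over all kept cells and in erythroid-gated cells, with its SE as bars (edgeR, 2 libraries per group). Outside haemoglobin the values in the gate lie between -0.28 and 0.08 with short bars; the haemoglobin genes lie above 0 in the gate with wide bars.

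Whether the difference between treatments itself differed between erythroid-gated and other cells was tested with an interaction term. The log2 difference, gated minus other cells, was 1.85 ± 0.83 for Car1, 2.17 ± 0.94 for Ermap, 2.27 ± 0.92 for Tspo2, 1.19 ± 0.47 for Aqp1 and 0.98 ± 0.35 for Mfsd2b, and -0.14 ± 0.19 for Car2. Their unadjusted p-values were 0.0496, 0.0433, 0.0327, 0.0281, 0.0177 and 0.50, and none passed after adjustment over 17175 genes (edgeR, adjusted p = 1.0; 0 genes called, 0%, while 240 higher and 230 lower genes had an unadjusted p under 0.05). For Hbb-bt and Hbb-bs the log2 difference was -0.58 ± 0.64 and 0.09 ± 0.25, and without Yoda1 2 it was -1.77 and -2.10.

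In myeloid-gated and ungated cells the libraries differed more in Car1, Tspo2 and Ermap than in the erythroid gate. In myeloid-gated cells Car1 was at 307, 83.9, 116 and 5.29 CPM (control 1, control 2, Yoda1 1, Yoda1 2), and in ungated cells at 1476, 533, 598 and 40.6 CPM. Tspo2 was at 77.9, 45.9, 39.2 and 2.00 CPM in ungated cells and Ermap at 78.8, 32.3, 36.1 and 1.96 CPM. Yoda1 2 was lowest in each. These gates did not hold like cells in each library. Ties between lists made up 718 of 786, 850 of 1110, 939 of 1196 and 1242 of 2552 ungated cells. Exactly 2 markers were found in 243 of 5034, 502 of 4447, 592 of 5728 and 1162 of 2535 myeloid-gated cells. The erythroid gate held 58.8%, 75.7%, 69.5% and 83.2% of the Car1 UMIs of the libraries and 65.3%, 76.6%, 74.5% and 89.7% of those of Ermap. With the share of each gate set to its mean over the 4 libraries, a calculation added after the data were seen, the log2 ratio of the group means was -0.74 for Car1 against -1.23 as observed in the same cells, -0.51 against -1.10 for Ermap, -0.74 against -1.27 for Tspo2, -0.72 against -1.16 for Aqp1 and -0.87 against -1.08 for Mfsd2b. For haemoglobin it was 1.01 to 1.44. Since the cells inside a gate also differed between libraries, holding the shares cannot separate make-up from level. The part played by the different make-up of Yoda1 2 in the differences over all cells was not tested.

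The early genes stood higher in cells with more erythroid markers detected. In cells with 0 of the 10 markers Car1 stood at 53.9, 27.7, 36.6 and 5.97 CPM, with 2 markers at 1584, 1259.5, 1161 and 657 CPM and with 5 or more at 3667, 4760.1, 3937 and 3024 CPM. Ermap was at 2.90, 1.30, 1.51 and 0.201 CPM at 0 markers and at 265, 297, 269 and 320.2 CPM at 5 or more. For Car1, Car2, Aqp1, Ermap and Tspo2 each further marker went with a higher level in all 4 libraries, except that Car1 and Tspo2 of Yoda1 2 were lower at 4 markers, in 21 cells, than at 3, and Aqp1 of Yoda1 2 was higher at 4 than at 5 or more. Mfsd2b reached its plateau early: at 2 markers it stood at 84.3, 101, 69.9 and 55.7 CPM and at 5 or more at 77.4, 79.6, 65.1 and 63.7 CPM. At 1 or 2 markers Yoda1 2 lay below the other libraries for Car1, Aqp1, Ermap, Tspo2 and Mfsd2b.

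**Figure D3:**
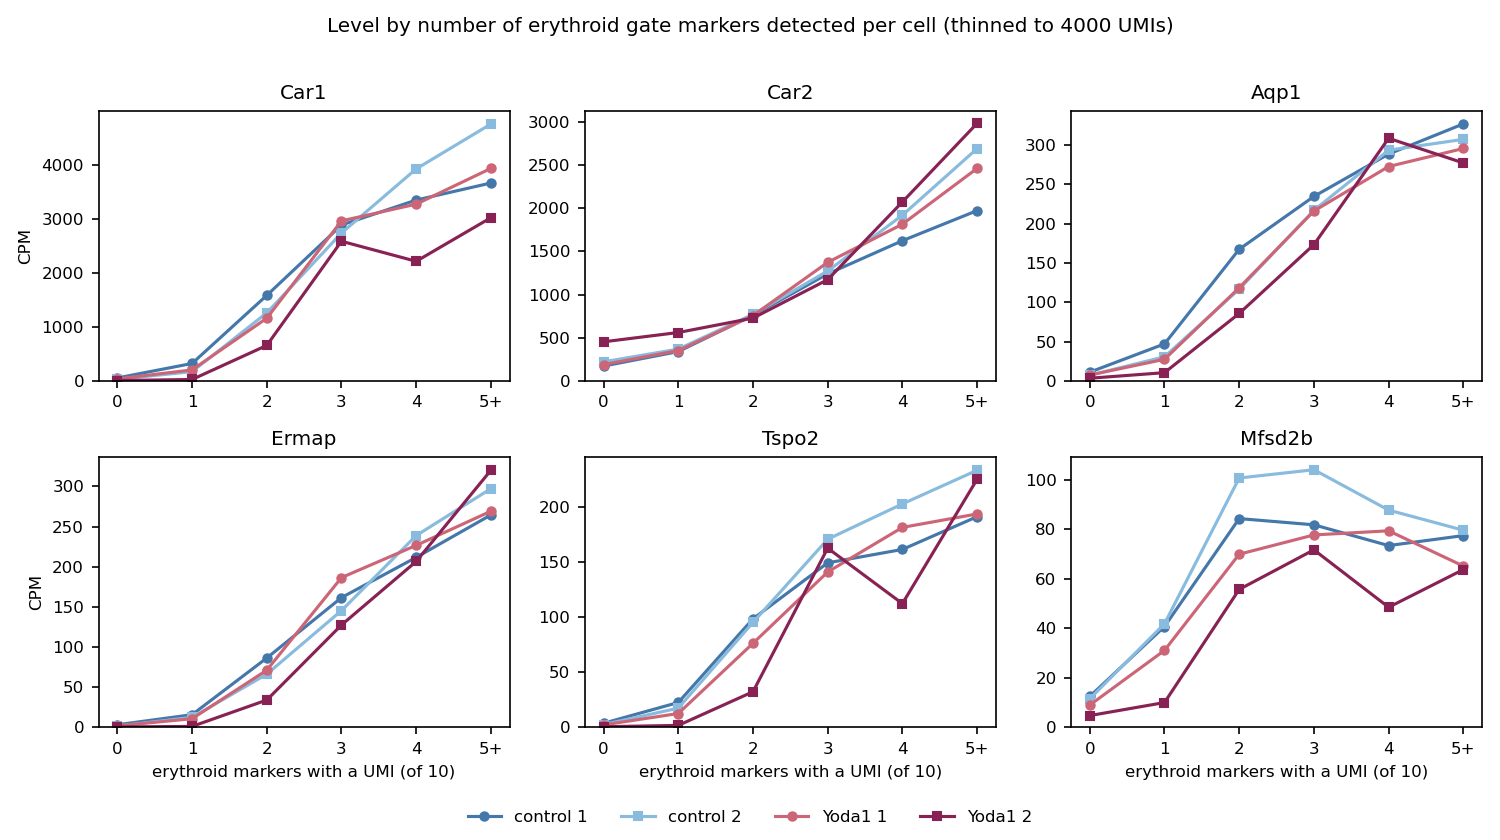
Level of 6 genes, in CPM on linear axes, in cells grouped by how many of the 10 erythroid gate markers had a UMI after thinning to 4000 UMIs; each line is 1 library. Car1, Car2, Aqp1, Ermap and Tspo2 are higher at 5 or more markers than at 2, while Mfsd2b levels off at 2 markers.

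Each gene had its own spread over the other lineages. Car2 was the broadest: after the erythroid gate its highest level in a named gate was in HSC-gated cells in all 4 libraries, at 712, 838, 716 and 700.4 CPM, where 89.6% to 92.3% of thinned cells had a UMI. Megakaryocyte-gated cells stood at 330.4, 382, 349 and 498 CPM, and lymphoid-gated cells, which stand for the background, at 104, 173, 123 and 208 CPM. HSC-gated cells were higher than lymphoid-gated cells in 4 of 4 libraries, by 590.0 ± 72.0 CPM (SD, n = 4), with an exact sign-flip permutation p of 0.125, the smallest that 4 libraries allow (adjusted p = 0.143 over 8 such contrasts). With 4 or more HSC markers detected, Car2 was at 796, 901, 740.3 and 752 CPM, against 497, 401, 362 and 399 CPM with 0. Of the Car2 UMIs of Yoda1 2, 33.2% lay in HSC-gated cells and 12.3% in erythroid-gated cells, against 1.40% to 5.43% and 42.6% to 47.6% in the other libraries.

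Mfsd2b was higher in megakaryocyte-gated than in erythroid-gated cells. It stood at 102, 122, 92.3 and 75.5 CPM in the former and at 78.9, 92.8, 75.2 and 64.7 CPM in the latter, higher in 4 of 4 libraries by 20 ± 7.76 CPM (SD, n = 4; exact sign-flip permutation p = 0.125, adjusted p = 0.143). HSC-gated cells had 22.7, 18.0, 3.97 and 3.50 CPM of it and lymphoid-gated cells 8.41, 6.57, 0.735 and 3.50 CPM. Aqp1 was also found in megakaryocyte-gated cells, at 62.5, 56.7, 47.1 and 46.7 CPM, but well below its level in erythroid-gated cells. Ermap and Tspo2 were nearly absent from megakaryocyte-gated cells, at 0 to 5.51 and 0 to 6.88 CPM.

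**Figure D4:**
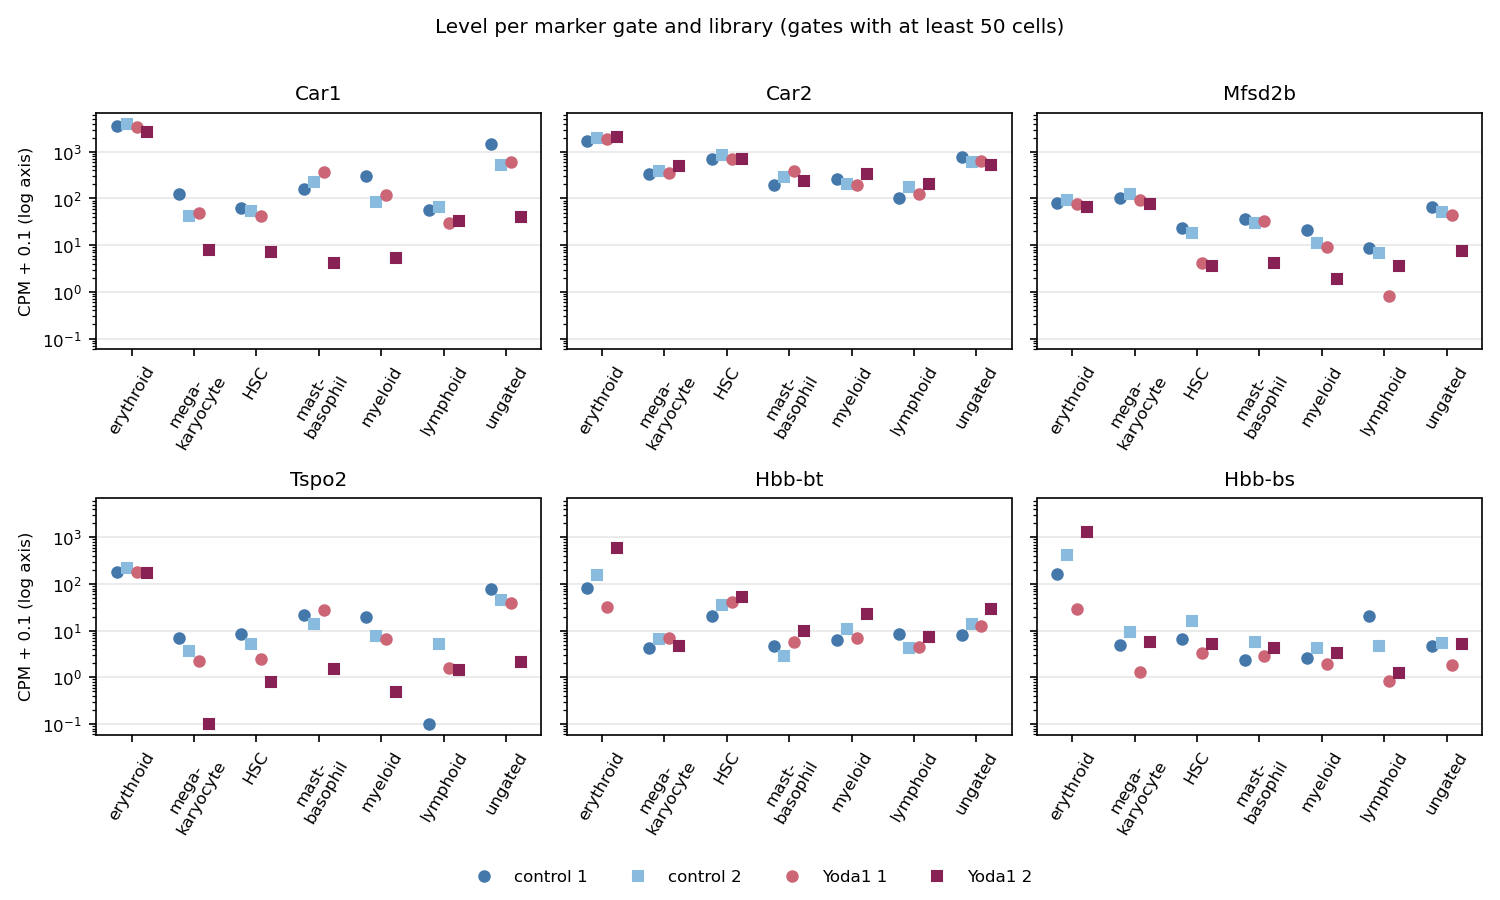
Level of 6 genes per marker gate and library, as CPM + 0.1 on a log axis; each point is 1 library. Car1 and Tspo2 are highest in erythroid-gated cells, Car2 is also high in HSC-gated cells, Mfsd2b in megakaryocyte-gated cells and Hbb-bt in HSC-gated cells.

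Over the 28 sums of a gate in a library the genes fell into groups that varied together, given here as a description since the sums share libraries and depth. Pearson's r of log2(CPM + 10) was 0.991 between Ermap and Tspo2, 0.966 between Car1 and Tspo2 and 0.991 between Hba-a1 and Hbb-bs, while that between Hbb-bt and Mfsd2b was 0.17. Of 8329 other genes the 5 most like Car1 were Gm15915, Trib2 (a pseudokinase), Ugcg (glucosylceramide synthase), Ces2g (a carboxylesterase) and Tnfaip2, with r from 0.93 to 0.98. Those most like the haemoglobin sum were Hebp1 (a haem-binding protein), Prdx2 (an abundant red cell peroxiredoxin), Josd1, Dhrs4 and Nfia, with r from 0.84 to 0.92. The haemoglobin values of the erythroid gate, and so these correlations, rest in part on few cells. In control 1, 5 cells held all but 273 of its 5452 haemoglobin UMIs.

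The early genes were found in the same cells. Of the thinned cells with a Tspo2 UMI (771, 485, 522 and 70 in the 4 libraries), 91.2%, 86.8%, 86.8% and 88.6% also had a Car1 UMI, against 25.7%, 14.2%, 17.7% and 2.59% of the cells without one. Ermap was in 39.2%, 38.1%, 37.5% and 40.0% of the Tspo2 cells and in 5.75%, 2.30%, 3.29% and 0.494% of the rest. Cells with a Hbb-bt UMI (198, 289, 268 and 647) differed from these: 28.3%, 18.3%, 20.9% and 4.17% had a Car1 UMI, close to the 32.9%, 19.1%, 21.9% and 3.20% of cells without Hbb-bt. Car2, in contrast, was in 68.2%, 67.1%, 73.9% and 82.5% of the Hbb-bt cells and in 55.8%, 57.9%, 56.2% and 75.7% of the rest, higher in 4 of 4 libraries. Hbb-bs was in 7.58%, 5.19%, 2.24% and 3.25% of the Hbb-bt cells and in 0.981%, 1.59%, 0.875% and 1.54% of the rest. These shares are descriptions over cells of a library.

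Haemoglobin UMIs came from few cells. Of the Hbb-bs UMIs, 50% or more lay in 1, 2, 2 and 2 cells of control 1, control 2, Yoda1 1 and Yoda1 2, and the richest cell held 1425, 1753, 307 and 1122 of them. Cells with at least 50 haemoglobin UMIs numbered 5, 7, 2 and 12, and they held 79.7%, 82.8%, 42.1% and 69.0% of all haemoglobin UMIs. Lymphoid-gated cells, which should lack haemoglobin, served as background: thinned, 5.36%, 2.82%, 2.84% and 4.78% of 56, 284, 141 and 544 such cells held at least 1 haemoglobin UMI, and 5.04%, 6.93%, 6.09% and 19.7% of erythroid-gated cells did, at median depths in the erythroid gate of 18043, 14649, 15570.5 and 13800.0 UMIs. By share, the erythroid-gated cells of control 1 were not above that background, and those of the other libraries had higher values. No interval is set on these shares, and the background rests on few cells, 56 in control 1 and 141 in Yoda1 1. By level the haemoglobin sum in lymphoid-gated cells was 47.1, 10.03, 5.88 and 9.996 CPM, below that of erythroid-gated cells in all 4 libraries. The source of the UMIs in lymphoid-gated cells was not tested. Without the richest cells the haemoglobin sum in erythroid-gated cells was 18.6, 25.8, 44.2 and 81.0 CPM in place of 368, 777, 94.9 and 2809 CPM, and the order of the libraries changed, with both Yoda1 libraries above both controls. That comparison was made after the data were seen and has no test of its own. Leaving out cells with at least 10 haemoglobin UMIs, the log2 fold changes inside the gate were 0.19 for Hbb-bt, 0.60 for Hbb-bs, 0.46 for Hba-a1 and 0.47 for Hba-a2, with edgeR adjusted p = 1.0.

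The share of cells with at least 10 haemoglobin UMIs was 0.0841%, 0.122%, 0.0232% and 0.228% after thinning (difference 0.02 percentage points, exact permutation p = 1.0) and 0.223%, 0.256%, 0.219% and 0.584% without thinning. There were 17, 20, 20 and 57 such cells unthinned. In Yoda1 2, 37 of the 57 held mostly Hbb-bt and 22 of the 57 were HSC-gated, against 2 of 17, 7 of 20 and 6 of 20 mostly Hbb-bt and 0, 2 and 1 HSC-gated in the other libraries. Without Yoda1 2 the thinned difference was -0.08 points.

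Hbb-bt was found more often in HSC-gated than in lymphoid-gated cells. It stood at 20.8, 36.1, 41.3 and 52.7 CPM in the former, and in the latter at 8.41, 4.15, 4.41 and 7.16 CPM. A UMI was seen in 6.30%, 7.40%, 9.76% and 10.1% of thinned HSC-gated cells (11.0%, 10.7%, 13.5% and 14.8% unthinned) against 3.57%, 2.11%, 2.13% and 2.94% of thinned lymphoid-gated cells (5.36%, 3.17%, 3.55% and 5.51% unthinned), although HSC-gated cells were the shallower, with medians of 7017, 6048, 5671 and 6603 UMIs against 9828, 9410, 9280 and 9570 UMIs in round numbers. The HSC-gated cells were higher in 4 of 4 libraries, by 31.7 ± 14.0 CPM and by 5.70 ± 2.22 percentage points (SD, n = 4; exact sign-flip permutation p = 0.125, adjusted p = 0.143 for each). For Hbb-bs the difference in shares was smaller and did not exceed its spread: 1.57%, 1.64%, 1.58% and 1.79% of thinned HSC-gated cells had a UMI, against 3.57%, 0.704%, 0.709% and 0.735% of lymphoid-gated cells (higher in 3 of 4 libraries; 0.22 ± 1.48 points, SD, n = 4, exact sign-flip permutation p = 0.875). Control 1, with 56 lymphoid-gated cells, went the other way, and without it the mean difference was 0.957 points.

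The proportion of Hbb-bt among haemoglobin UMIs differed in the same way. It was 21.5%, 18.8%, 22.7% and 20.3% in the cells with at least 50 haemoglobin UMIs, and 64.7%, 58.0%, 89.7% and 86.6% in HSC-gated cells. The difference was 53.9 ± 14.7 percentage points (SD, n = 4), in the same direction in 4 of 4 libraries (exact sign-flip permutation p = 0.125, adjusted p = 0.143). The richest cells, 5, 7, 2 and 12 in number, were picked by the haemoglobin sum that this proportion divides by. The contrast was chosen after the data were seen, so its p-value lends it no weight. Among the HSC-gated cells of control 2 a single cell held at least 50 haemoglobin UMIs, and without it the proportion was 80.0%. In erythroid-gated cells without the richest cells it was 34.1%, 35.2%, 34.7% and 22.8%, and in myeloid-gated cells 59.5%, 63.6%, 70.5% and 80.9%. Ungated cells stood at 56.8%, 63.6%, 78.1% and 79.5%, and lymphoid-gated cells, with 28, 29, 8 and 60 haemoglobin UMIs in all, at 17.9%, 41.4%, 75.0% and 71.7%. High proportions of Hbb-bt were therefore not confined to HSC-gated cells. The part of RNA free in the suspension in these proportions was not tested.

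**Figure D5:**
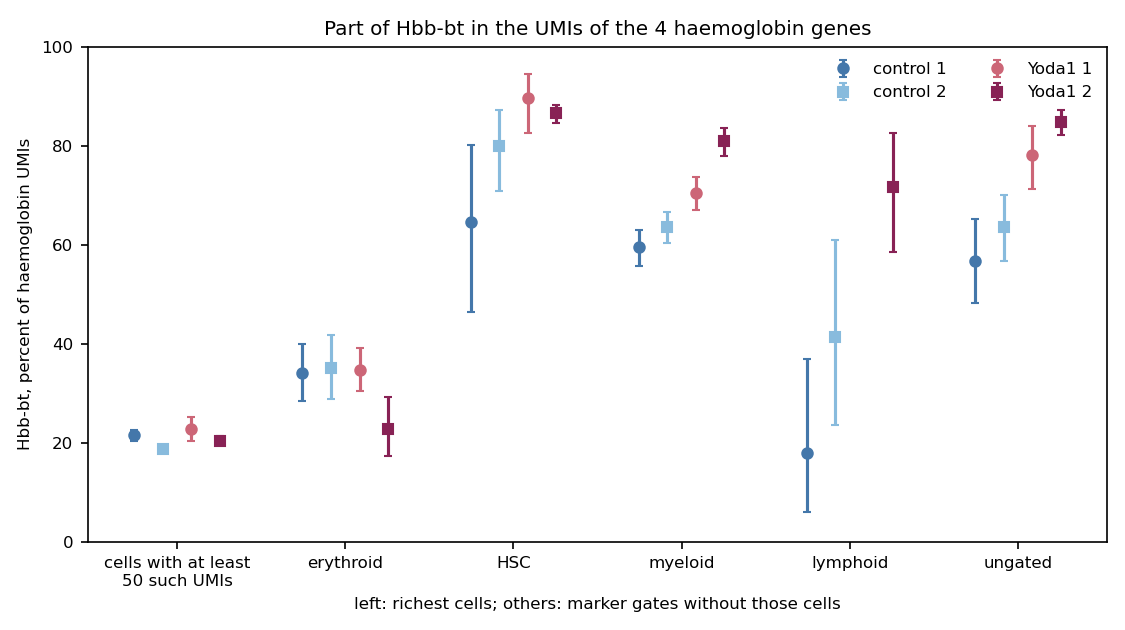
Hbb-bt as a percent of the UMIs of the 4 haemoglobin genes, with exact binomial 95% intervals (counting error only); at left the cells with at least 50 haemoglobin UMIs, then the marker gates without those cells, each point 1 library (lymphoid-gated Yoda1 1, with 8 UMIs, is left out). HSC-gated cells lie between 64.7% and 89.7%, above the richest cells at 18.8% to 22.7%.

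Hbb-bt stood higher in cells with 4 or more HSC markers than in cells with 0. At 0 of 10 HSC markers its level was 12.3, 8.85, 5.2 and 39.3 CPM and at 4 or more it was 37.9, 41.0, 58.8 and 65.8 CPM, higher in 4 of 4 libraries. The steps between were uneven: Yoda1 2 reached 92.2 CPM at 3 markers, above its 65.8 CPM at 4 or more. Single haemoglobin-rich cells lie among the groups between and at 0, and their part in this was not tested. Without the richest cells Hbb-bt was 2.69 to 3.41 times as high in HSC-gated as in erythroid-gated cells. Those cells were picked by a sum that includes Hbb-bt, and 5 of 5, 4 of 7, 1 of 2 and 11 of 12 were erythroid-gated. With all cells Hbb-bt was at 81.5, 157, 32.6 and 576 CPM in the erythroid gate and at 20.8 to 52.7 CPM in the HSC gate. It was then higher in the erythroid gate in every library but Yoda1 1.

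Other genes of the red cell programme were read from the same fits, from lists fixed by function. These lists too were chosen with earlier results of these data known. Over all cells 0 genes of any list were called, against 0% of all genes. Of the 10 erythroid regulators, 9 had negative and 1 a positive log2 fold change (median -0.41), where 49.1% of all genes tested were negative, and in 4 both Yoda1 libraries lay below both controls, against 9.95% of all genes tested. Gata2, a factor of stem cells and early progenitors, was at 99.0 and 113 CPM in the controls and at 73.6 and 76.7 CPM in the Yoda1 libraries (-0.54 ± 0.17, unadjusted p = 0.0167 in edgeR). Gfi1b, a transcriptional repressor needed for erythroid and megakaryocytic cells, was at 47.9 and 41.6 CPM against 30.6 and 17.4 CPM, and Lmo2, a partner of Tal1, at 445 and 510.4 CPM against 473 and 755 CPM.

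All 8 haem synthesis genes had negative values (median -0.28), with Cpox, coproporphyrinogen oxidase, at -0.50 ± 0.31 and Alas2, the erythroid form of the first enzyme of the pathway, at -1.02 ± 0.56 from a mean of 0.36 CPM. Of the iron uptake genes 5 of 6 were negative (median -0.41), with Tfr2 at -0.46 ± 0.22, the iron transporter Slc11a2 at -0.67 ± 0.39 and the mitochondrial iron carrier Slc25a37 at 0.07 ± 0.20. Membrane and cytoskeleton genes were negative in 10 of 12 (median -0.69), with the blood group genes Kel at -1.30 ± 0.57 and Rhag at -1.23 ± 0.60. The exceptions were Epb42 (0.19 ± 0.46) and Slc4a1 (0.04 ± 0.92). Yoda1 2 was the lowest library for Kel and Rhag, with Kel at 7.97 and 4.66 CPM in the controls and 3.79 and 1.35 CPM in the Yoda1 libraries. Of the 7 late erythroblast genes tested 5 were negative (median -0.75), with Tent5c at -0.96 ± 0.38 and Bpgm, which makes bisphosphoglycerate, at 0.01 ± 0.19. No embryonic globin passed the filter on low counts, 0 of 6.

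Within the erythroid gate these lists no longer all leaned the same way. Some regulators, among them Gata1 and Klf1, and some membrane genes, among them Rhd and Rhag, were also markers that formed the gate. Cells entered the gate by having UMIs of such genes, so the in-gate values of these lists are not independent of it. The medians were -0.07 for regulators, 0.21 for haem synthesis, 0.02 for iron uptake, 0.18 for membrane genes and 0.41 for late erythroblast genes, with 0.00 over all genes tested, and 0 genes of any list were called. Regulators still had negative values in 8 of 10, where 50.9% of all genes tested did. In 2 of these 10 both Yoda1 libraries lay below both controls, against 15.4% of all genes tested, and in 0 both lay above. Of 5 iron uptake genes 2 lay below in this way and 1 above, and of 7 late erythroblast genes also 2 and 1. Haem synthesis genes had positive values in 7 of 8, where 49.1% of all genes tested did. Both Yoda1 libraries lay above both controls in 3 of those 8 and in 4 of the 12 membrane genes, against 11.0% of all genes tested, among the latter Epb42 at 2.23 and 1.75 CPM in the controls and 3.06 and 8.93 CPM in the Yoda1 libraries (1.45 ± 0.55, unadjusted p = 0.0294 in edgeR). Slc4a1 was at 4.66 and 1.99 CPM against 1.02 and 30.0 CPM there, so that Yoda1 2, richest in haemoglobin, was also richest in it.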

How the data were processed

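The authors deposited raw counts of UMIs per gene and barcode, not normalized, made with Cell Ranger 7.1.0 per the file headers. Seurat 4.3.0 and the build GRCm38/mm10 come from the submitters' processing notes. Since the labels mention 10x Genomics and also a Singleron microwell chip, it is not settled how cells were captured. No source used here gives the annotation release or the handling of introns. GENCODE M21 positions matched 52081 of 55357 identifiers (94.1%).

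A barcode counted as a cell from 500 genes and 1000 UMIs upward if mitochondrial UMIs made up no more than 10%. No doublet caller was run; an alternative left out the 5% of cells with most UMIs. Gates used 6 lists of 10 markers on cells thinned to 4000 UMIs, which left out 488, 470, 509 and 986 shallower cells; a tie between lists left a cell ungated. Counts summed per library were filtered with filterByExpr, scaled with TMM and tested with edgeR 4.0.16 (R 4.3.3; threshold 0.05). The SE is the absolute log2 fold change divided by the square root of the F statistic. The alternatives comprised limma-voom (limma 3.58.1), DESeq2 1.42.0, other scaling, filters, gates and thinning, a replicate block, and each library left out. Shares were compared by exact permutation over 6 arrangements of the libraries, and gates by exact sign flips over 4 libraries. The edgeR test over all kept cells was checked on simulated data. Of 18182 genes, 200 of at least 10 CPM were changed by a log2 fold of 2, up or down. The test recovered 100% of them and called 0.176% of the unchanged genes. The other tests were not checked in this way. Sequences are from RefSeq (GRCm38.p6). Fits with gate shares held, without the richest cells (50 haemoglobin UMIs or more) and the sign flips were chosen after the data were seen.

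Named genes are the 10 members, of each other list the 2 of smallest unadjusted p in each direction, and the 5 genes most correlated with Car1 and with the haemoglobin sum among genes of at least 10 CPM on average. A gene that this rule names is not reported here. Ahsp, of the late erythroblast list, was not analysed here, and that list holds Tent5c also under its older symbol Fam46c. The members and lists were chosen with earlier results of these data known.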

Additional observations from a re-analysis of the deposited data

Results flagged for a closer look

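Haemoglobin UMIs also appeared in barcodes that failed the cell filter, which enter no comparison above. Yoda1 1 had 2418 of them there, above the 15 and 270 of control 1 and control 2, while Yoda1 2 had 20. A single barcode held 1969 of the 2418. The kept cells of Yoda1 1 held 2810 haemoglobin UMIs, the fewest of the 4 libraries, against 6499, 9706 and 11188 in control 1, control 2 and Yoda1 2. With every deposited barcode in the sums the log2 fold change of Hba-a2 over all cells turned from -0.31 to 0.04.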

How the results depend on the processing

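With 2 libraries per group, counts of called genes depended on single libraries. Over all cells 0 genes were called by edgeR and 5 by DESeq2, and leaving out 1 library gave 0 to 938. In erythroid-gated cells 0 were called, with 1 in DESeq2, 72 with no filter on low counts and 0 to 84 with 1 library left out. For the interaction of treatment and gate 0 were called, and 2 to 535 with 1 library left out. The lone library of a group is then assumed to vary like the pair. Whether the replicate numbers pair the samples is not settled: the labels do not say so, there are 2 pairs, and the difference of replicates 1 and 2 in the controls correlated with that in the Yoda1 libraries (r = 0.48 over 8323 genes). With a replicate block 0 genes were called over all cells and 0 in the gate; at an unadjusted p under 0.05 there were 674 higher and 693 lower genes over all cells in place of 148 and 161, and 247 and 171 in the gate in place of 125 and 78, and the in-gate log2 fold change of Hbb-bs was -0.44.

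With 1 library left out, log2 fold changes over all cells that changed sign ranged from -0.24 to 0.074 for Car2, -0.87 to 0.93 for Hbb-bt, -1.82 to 0.37 for Hba-a1 and -1.41 to 0.30 for Hba-a2. In the gate they ranged from -0.0033 to 0.17 for Car2, -0.18 to 0.035 for Ermap, -1.81 to 2.24 for Hbb-bt, -3.28 to 2.10 for Hbb-bs, -2.15 to 2.52 for Hba-a1 and -2.45 to 2.55 for Hba-a2. The interaction ranged from -0.46 to 0.19 for Car2, -1.77 to 0.58 for Hbb-bt, -2.10 to 2.22 for Hbb-bs, -0.99 to 2.74 for Hba-a1 and -1.62 to 2.40 for Hba-a2. Differences in shares, in percentage points, ranged from -2.21 to 11.4 for any of the 10 genes, -0.53 to 19.0 for Car2, -0.24 to 4.02 for Hbb-bt, -0.53 to 0.22 for Hbb-bs, -0.19 to 0.14 for Hba-a2 and -0.080 to 0.12 for haemoglobin-high cells.

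Other settings turned further signs: Car2 over all cells was 0.055 without the 5% of cells with most UMIs and 0.035 with gate shares held, and in the gate -0.077 without haemoglobin-high cells and -0.13 without the deepest cells. Ermap in the gate was 0.030 with at least 3 markers. With gate shares held, a setting chosen after seeing the data, Hbb-bs, Hba-a1 and Hba-a2 over all cells were 1.01, 1.44 and 1.36, and in limma-voom the in-gate values of Hbb-bt, Hbb-bs, Hba-a1 and Hba-a2 were -0.032, -0.80, -0.15 and -0.75. With every barcode Hba-a2 was 0.043. Thinned to 2000 UMIs the difference in share was 0.0063 points for Hba-a2 and -0.0012 points for haemoglobin-high cells. The cause of these turns was not tested. Over all cells Car1, Aqp1, Ermap, Tspo2 and Mfsd2b were lower in Yoda1 under every alternative run, and the share of erythroid-gated cells differed by -6.85 to -1.15 points under all of its alternatives. Few haemoglobin UMIs outside the richest cells limit what can be told of those genes in the other cells.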
